A study of Mus musculus with 9 samples.

Results

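Htra1 and 8 cathepsin genes (Ctsa, Ctsb, Ctsd, Ctsh, Ctsk, Ctsl, Ctss and Ctsz) were followed by RNA sequencing in primary mouse articular chondrocytes, the cells of joint cartilage. They were taken by gene symbol, which gave 9 of the 55450 genes listed in every library. The study set 3 groups of 3 libraries against each other to ask what the protein modification O-GlcNAc does in senescent chondrocytes. All cultures stood at 3% oxygen in medium with 10% fetal bovine serum, and all were first digested with hyaluronidase (4 U/mL, 4 h, without serum). Vehicle cells then received PBS for 24 h followed by DMSO for 5 days. Bleomycin cells received 50 µg/mL of bleomycin, a DNA-breaking drug, for 24 h and then DMSO for 5 days. The last group had the same bleomycin course and then ST045849, an inhibitor of the O-GlcNAc transferase, at 20 µM for those 5 days, and in all groups medium was renewed every 48 h. ST045849 without bleomycin was not analysed here. Separate animals or cultures are not named in the labels, and the p-values then measure only how much these samples vary, which may be technical.

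Cathepsins are proteases that mature in the acid interior of lysosomes. They fall into catalytic classes: Ctsd is an aspartic protease, Ctsa a serine carboxypeptidase, and Ctsb, Ctsh, Ctsk, Ctsl, Ctss and Ctsz are cysteine proteases related to papain. Newly made enzymes are tagged with mannose 6-phosphate and sorted to lysosomes, part of them can be secreted, and outside the cell cystatins and other inhibitors hold the cysteine cathepsins in check. Htra1 is a secreted serine protease of another family, which cleaves cartilage matrix proteins and is known for its high level in osteoarthritic cartilage.

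FPKM, the deposited unit, is the number of fragments per kilobase of exon and per unit of library size, so that levels of different genes can be set side by side. Steps between low values put the depth at about 31300000 to 35900000 fragments a library. The 9 chondrocyte markers, among them Col2a1, Acan and Sox9, were all measured, with a summed level of 23679 to 33084 FPKM in vehicle, 17655 to 25025 with bleomycin and 13968 to 20713 with ST045849. Most of this sum was Col2a1 alone, at 16338 to 24072, 12435 to 18516 and 9477 to 14700.2 FPKM in the same groups. Of 15 macrophage markers 4 passed the level filter, and their list summed to 8.78 to 10.6 FPKM in vehicle, 14.4 to 18.6 with bleomycin and 14.0 to 23.5 with ST045849, while C1qb, C1qc and Tyrobp were at 0 in all 9 libraries. In bulk samples fewer cells of a type and less RNA per cell cannot be told apart.

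The promoters are shown because several members moved in the same direction and lysosomal genes often carry the motif CACGTG, the core of the site bound by the TFEB family of transcription factors. RefSeq (GRCm38.p6) gave windows of 300 bases, 250 before and 50 after a start, for 7 of the 9 genes: Htra1, Ctsa (2 starts), Ctsd, Ctsk, Ctsl, Ctss and Ctsz. CACGTG, searched on both strands, was found in 3 of the members' 8 windows, those of Ctsd, Ctsl and the second Ctsa start, and in 7.15% of all 32851 windows. The window of the first Ctsa start held none. The longer TCACGTGA, which contains CACGTG, was found in the windows of Ctsd and the second Ctsa start and in 0.974% of all windows. TGANTCA, the AP-1 motif, was in none of the members' windows and in 7.81% of all. The stretches around CACGTG follow, 5′ to 3′ on the gene's strand, with CACGTG in capitals.
Ctsd, chr7:142388057-142388077, minus strand: tccccCACGTGacctgtatcc
Ctsd, chr7:142387910-142387935, minus strand: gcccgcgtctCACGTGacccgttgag
Ctsa, second start, chr2:164833758-164833786, plus strand: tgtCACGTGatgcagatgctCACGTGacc
Ctsl, chr13:64370741-64370766, minus strand: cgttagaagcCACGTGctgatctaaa
In Ctsd the matches began 245 and 98 bases before the start. In Ctsa both lay within the stretch printed, the first of them 12 bases before the second annotated start, and in Ctsl the match began 236 bases before it. By GENCODE vM21 the first Ctsd stretch lies before every annotated exon, the second and the Ctsa stretch lie wholly within annotated exons, and the Ctsl stretch partly. Htra1 and Ctsz, the members with the largest difference from vehicle with bleomycin and with both agents, held none of these letters in their windows. Their sequence before the first annotated exon follows, all in lower case because no match was found.
Htra1, chr7:130935953-130936110, plus strand: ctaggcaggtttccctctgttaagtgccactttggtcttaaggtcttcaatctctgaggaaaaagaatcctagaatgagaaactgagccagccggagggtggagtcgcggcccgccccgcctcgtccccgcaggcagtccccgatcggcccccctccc
Ctsz, chr2:174439040-174439289, minus strand: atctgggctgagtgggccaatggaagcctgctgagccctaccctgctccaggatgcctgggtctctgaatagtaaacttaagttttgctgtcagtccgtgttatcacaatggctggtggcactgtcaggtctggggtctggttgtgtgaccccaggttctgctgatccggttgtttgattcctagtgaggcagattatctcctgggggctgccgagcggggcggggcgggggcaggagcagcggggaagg
A match is a description of these windows and says nothing of binding.

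Levels spanned over a wide range. In vehicle Ctsd stood first at 624 ± 73.3 FPKM (SD, n = 3) and Ctsl second at 185 ± 33.1. Ctsb (128 ± 15.6), Htra1 (115 ± 18.0), Ctsa (106 ± 22.3) and Ctsz (95.1 ± 13.6) followed, and each of these overlapped its neighbour in the order. Ctsh was at 26.4 ± 5.94, Ctsk at 2.25 ± 2.15, and Ctss was listed at 0 in all 3 vehicle libraries. The sequence Ctsd before Ctsl at the top, and Ctsh, Ctsk, Ctss at the bottom, held in all 9 libraries. Between them the order changed with treatment: with bleomycin Htra1 was number 3 by mean level, overlapping Ctsl above and Ctsb below it, and with ST045849 number 6, overlapping Ctsa. Together the 9 genes held, of all summed FPKM, a share of 0.339 to 0.349% in the vehicle group, 0.538 to 0.567% in the bleomycin group and 0.496 to 0.572% with ST045849, so vehicle lay apart from both treated groups and these overlapped each other.

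**Figure D1:**
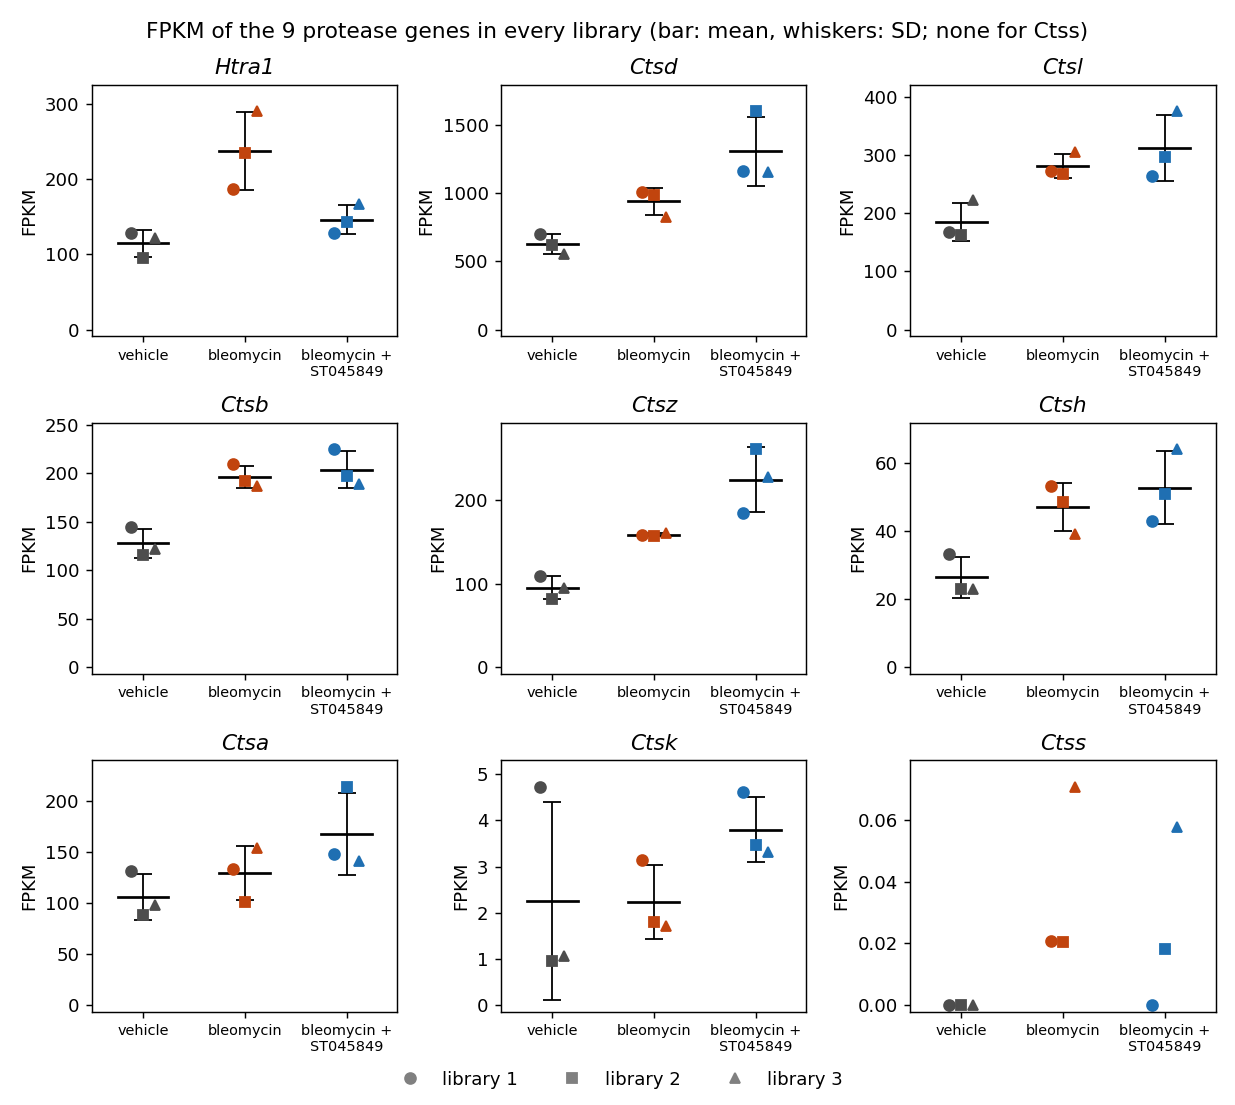
FPKM of each of the 9 genes (vertical axis, linear, with 0 shown) in the 3 groups (horizontal axis), with 1 point a library, the mean as a bar and the SD as whiskers (none for Ctss, which is near 0). Htra1 is highest in the bleomycin group, at 186 to 289.96 FPKM, while Ctsd and Ctsz are highest with ST045849.

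The members were compared in the 3 ways the groups allow, on log2(FPKM + 1) with limma across all 12441 genes that reached 1 FPKM in at least 3 libraries. A gene was called at a Benjamini-Hochberg adjusted p under 0.05, and the differences below are on this log2 scale, with the standard error (SE) from the fit. The filter kept 8 members and left out Ctss. The comparisons share libraries, so their results are given side by side and are not independent of each other.

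With bleomycin against vehicle, Htra1 rose, and 5 cathepsins (Ctsb, Ctsd, Ctsh, Ctsl and Ctsz) lay above vehicle in every library without passing the test. The call thus covered 1 of 8 members, beside 4.88% of all tested genes, and 6 of 8 had all bleomycin libraries above all vehicle libraries, beside 21.4% of all genes. None of the 8 lay wholly below vehicle, beside 6.53% of all genes. The members' median difference was 0.62, and that of all tested genes 0.10. Median-of-ratios scaling moved the median of all genes to -0.02 here, and from 0.19 to 0 for ST045849 against vehicle, so a part of each difference depends on how the libraries are scaled. With it Htra1 went from 1.03 to 0.88 with bleomycin, and Ctsd from 1.05 to 0.82 and Ctsz from 1.23 to 0.99 with both agents.

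With ST045849 added to bleomycin, against bleomycin alone, Htra1 was lower in every library, Ctsd, Ctsk and Ctsz were higher in every library, and Ctsa, Ctsb, Ctsh and Ctsl overlapped. None of these passed the test, as did none of the 12441 genes (0.0% called by limma, with 2804 at an unadjusted p under 0.05). All 3 libraries lay above in 16.5% of all genes and below in 8.67%. The spread of the ST045849 group bears on this count: without its library 1, limma called 2225 genes, of which none was a member. Libraries of equal replicate number deviated together across these 2 groups, though the labels do not give them as pairs. The pairs were thus chosen from the same values that a paired fit tests. A fit of these groups alone with the replicate number as a block called 2403 genes, 19.3% of those tested, and 2 of 8 members, Htra1 and Ctsk. That count rested on which numbers entered. Without replicate number 1 of both groups the paired fit called 2417 genes higher and 1820 lower, with Ctsd (adjusted p = 0.015) and Ctsz (0.0213) among the members beside Htra1 and Ctsk. Without number 2 it called 76 higher and 140 lower, and without number 3 it called 99 and 195, with no member in either.

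With both agents against vehicle, Ctsz, Ctsd and Ctsh rose. These are 3 of 8 members, beside 9.85% of all genes. Of the 8, 6 lay wholly above vehicle (Ctsa, Ctsb, Ctsd, Ctsh, Ctsl and Ctsz), beside 21.0% of all genes, and none wholly below, beside 6.66%. The members' median difference was 0.74 and that of all genes 0.19. Median-of-ratios scaling left 1 of the 3 calls, that of Ctsz, while the count of all genes called went from 1225 to 863. Without vehicle library 2 or 3 or ST045849 library 2 the members' count was 1, and all genes called numbered 286, 351 and 623. Without vehicle library 1 the members' count was 5, and all genes called numbered 1883. The members' count thus moved together with that of all genes.

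**Figure D2:**
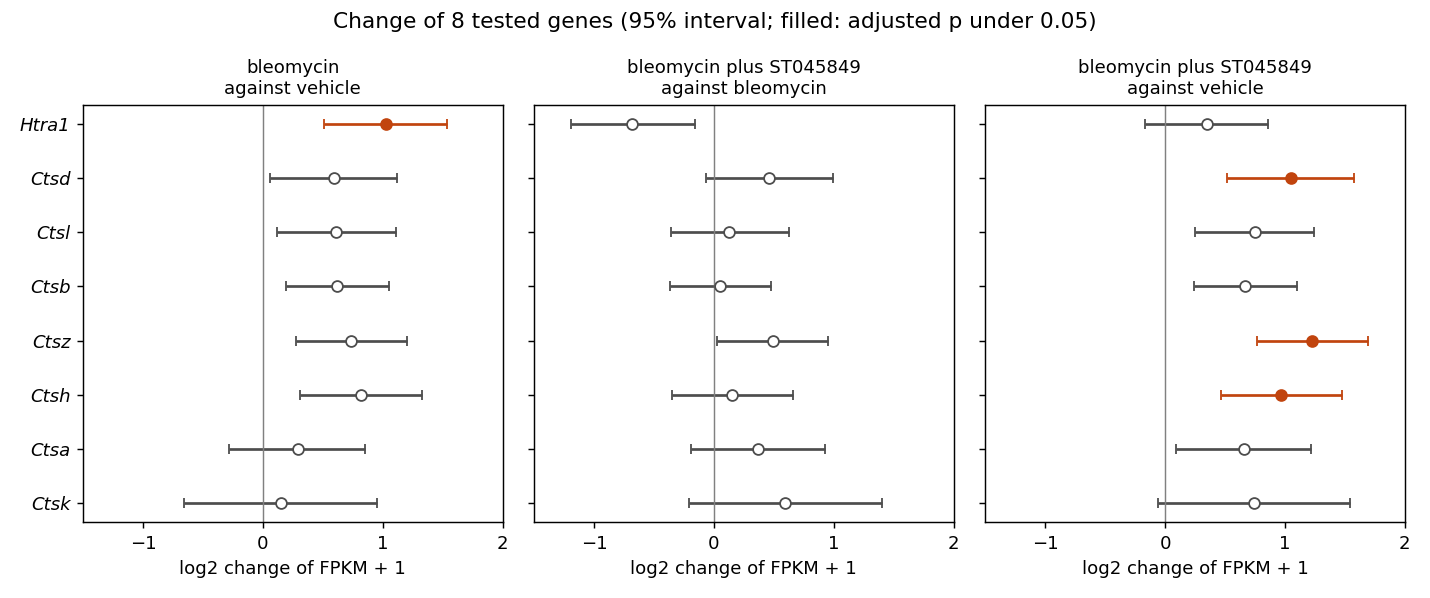
Difference in log2(FPKM + 1) (horizontal axis) for the 8 tested genes (vertical axis) in the 3 comparisons, with the 95% interval from limma; filled points have an adjusted p under 0.05. Htra1 is filled against vehicle with bleomycin, and Ctsz, Ctsd and Ctsh with both agents, while no point is filled for ST045849 against bleomycin.

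Htra1 (ENSMUSG00000006205.13, chr7:130936111-130985660, plus strand, GRCm38) was measured at 128, 94.3 and 122 FPKM in the vehicle libraries, at 186, 234 and 289.96 with bleomycin, and at 128, 143 and 167 with ST045849. The lowest bleomycin library stood above the highest of each other group, and vehicle and ST045849 overlapped. Against vehicle Htra1 rose 2.04-fold with bleomycin (1.03 ± 0.23 SE, adjusted p = 0.0319, limma). That call was lost without any single vehicle library and without bleomycin library 2 or 3 (adjusted p from 0.0566 to 0.136). It was also lost without the level filter (0.0628) and with the block in 2 groups alone (0.0577). With ST045849 the difference from bleomycin was -0.68 ± 0.23 (adjusted p = 0.203), and by replicate number it was -0.54, -0.71 and -0.79. In the paired fit, with the block, Htra1 fell by 0.68 on the log2 scale (adjusted p = 0.0359). The paired fit gave 0.0502 after the trend of each library with gene length was removed, and 0.00747, 0.131 or 0.286 without replicate number 1, 2 or 3 of both groups. Over all settings of this comparison the adjusted p ran from 0.00747 to 0.506. Quantile normalization gave -1.16 for the same difference. Against vehicle, cells with both agents differed by 0.35 ± 0.23 (adjusted p = 0.322).

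Ctsd, the main aspartic protease of lysosomes (ENSMUSG00000007891.16, chr7:142375911-142388038, minus strand), was the most abundant member. Vehicle libraries held 699, 619.9 and 552 FPKM, bleomycin libraries 1007, 988 and 826, and ST045849 libraries 1161, 1600.3 and 1154. The 3 groups did not overlap and stood in that order. With both agents Ctsd rose 2.08-fold over vehicle (1.05 ± 0.24, adjusted p = 0.0228), a call lost without vehicle library 2 or 3 or ST045849 library 2 (up to 0.113), without the filter (0.0925) and with median-of-ratios scaling (0.0668). The steps between were 0.59 ± 0.24 for bleomycin over vehicle (adjusted p = 0.223) and 0.46 ± 0.24 for ST045849 over bleomycin (0.257). That second value was 0.20 after the length trend was removed and 0.19 with quantile normalization. A predicted gene on the same strand, Gm49369, covers 34.4% of Ctsd's exon length and was listed at 0 to 0.961 FPKM.

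Ctsz, a cysteine carboxypeptidase also called cathepsin X (ENSMUSG00000016256.10, chr2:174427493-174439039, minus strand), showed the same order. Its vehicle libraries stood at 109, 81.6 and 94.7 FPKM, its bleomycin libraries at 158, 157 and 160.5, and its ST045849 libraries at 184, 261 and 228. Again the 3 groups did not overlap. Ctsz rose 2.34-fold over vehicle with both agents (1.23 ± 0.21, adjusted p = 0.00663), the smallest adjusted p of any member. That call held on leaving out any 1 library (up to 0.0412). It was lost with the block in 2 groups alone (0.122), also with the length trend removed (0.111). Bleomycin alone differed from vehicle by 0.74 ± 0.21 (adjusted p = 0.0722), and passed the test without ST045849 library 1 (0.0411), which enters through the shared spread, with the length trend removed (0.0151), with quantile normalization (0.0206) and with 2 groups alone (0.0394). ST045849 differed from bleomycin by 0.49 ± 0.21 (adjusted p = 0.213), and by 0.08 after the length trend was removed and 0.11 with quantile normalization. Ctsz has an exon length of 1441 bases, and Ctsk 1512, against 6051 for Ctsb and 6489 for Ctsl. The part of the length trend in these differences was not tested further.

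Ctsh, an aminopeptidase among the cysteine cathepsins (ENSMUSG00000032359.14, chr9:90054152-90076089, plus strand), was measured at 33.2, 22.9 and 22.9 FPKM in vehicle, 53.2, 48.5 and 39.2 with bleomycin, and 42.9, 50.9 and 64.0 with ST045849. Both treated groups lay above vehicle and overlapped each other. With both agents it rose 1.96-fold over vehicle (0.97 ± 0.23, adjusted p = 0.0257), a call lost without vehicle library 2 or 3 or ST045849 library 2 or 3 (up to 0.117), without the filter (0.0614) and with either scaling (0.0619 and 0.0825). The difference of bleomycin from vehicle was 0.82 ± 0.23 (adjusted p = 0.0696, and 0.0463 with 2 groups alone), and that of ST045849 from bleomycin 0.15 ± 0.23 (adjusted p = 0.681, 95% interval -0.35 to 0.66).

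Ctsl and Ctsb, the endopeptidases that do much of the protein breakdown in lysosomes, were both higher in treated cells than in vehicle. Ctsl (ENSMUSG00000021477.9, chr13:64359337-64370890, minus strand) stood at 168, 163 and 223 FPKM in vehicle, 272, 267 and 305 with bleomycin, and 264, 296 and 375 with ST045849. Ctsb (ENSMUSG00000021939.8, chr14:63122462-63145923, plus strand) stood at 145, 116 and 122, then 209, 192 and 187, then 225, 197 and 189 FPKM in the same groups. For both genes each treated library was above each vehicle library, and the treated groups overlapped.

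Bleomycin over vehicle gave 0.61 ± 0.22 for Ctsl (adjusted p = 0.166) and 0.62 ± 0.19 for Ctsb (0.106). Both agents over vehicle gave 0.75 ± 0.22 for Ctsl (adjusted p = 0.0584) and 0.67 ± 0.19 for Ctsb (0.0527). For both agents, Ctsl passed the test without ST045849 library 1 (adjusted p = 0.0265) and with the length trend removed (0.0272). Ctsb passed it without vehicle library 1 (0.0408) and with the length trend removed (0.0226). With bleomycin alone, Ctsl passed with quantile normalization (0.0418). ST045849 over bleomycin gave 0.13 for Ctsl, with a 95% interval from -0.36 to 0.63, and 0.05 for Ctsb, from -0.37 to 0.48. These intervals are wide enough to hold a difference in either direction. Fdft1, on the opposite strand, overlaps 12.8% of Ctsb's exon length and stood at 12.2 to 17.9 FPKM in vehicle and 6.85 to 11.9 in the treated groups.

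Ctsa, the serine carboxypeptidase that also protects beta-galactosidase and neuraminidase in lysosomes (ENSMUSG00000017760.16, chr2:164832873-164841032, plus strand), varied widely within its groups. Its levels were 131, 88.6 and 97.7 FPKM in vehicle, 133, 101 and 154 with bleomycin, and 148, 214 and 141 with ST045849. Vehicle and bleomycin overlapped, as did bleomycin and ST045849, while ST045849 lay above vehicle. Differences were 0.29 ± 0.26 (adjusted p = 0.66), 0.37 ± 0.26 (0.363) and 0.66 ± 0.26 (0.113) for bleomycin over vehicle, ST045849 over bleomycin and ST045849 over vehicle. Pltp overlaps 10.5% of Ctsa's exon length on the opposite strand and stood at 8.47 to 13.4 FPKM in vehicle, 24.9 to 33.8 with bleomycin and 34.5 to 47.8 with ST045849. Whether counting used strand is not given in the sources used here, so reads of that overlap cannot be assigned.

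Ctsk, the collagen-cleaving cathepsin of osteoclasts (ENSMUSG00000028111.4, chr3:95499256-95509362, plus strand), was scarce. Vehicle libraries held 4.73, 0.957 and 1.07 FPKM, bleomycin libraries 3.15, 1.81 and 1.72, and ST045849 libraries 4.61, 3.46 and 3.32. Vehicle library 1 was the highest of all 9, and library 1 was the highest of each group. Bleomycin differed from vehicle by 0.15 ± 0.36 (adjusted p = 0.904), and this value ran from -0.12 to 0.65 on leaving out single libraries. With ST045849 Ctsk lay above bleomycin in all 3 libraries (0.59 ± 0.36, adjusted p = 0.317), by 0.44, 0.67 and 0.67 at equal replicate numbers. In the paired fit, with the block, it rose (adjusted p = 0.0386), but with the length trend removed as well the difference was 0.19 (adjusted p = 0.409), and without replicate number 1, 2 or 3 of both groups the adjusted p was 0.02, 0.154 or 0.252. Over all settings of this comparison the adjusted p ran from 0.02 to 0.796. Against vehicle the difference was 0.74 ± 0.36 (adjusted p = 0.19), and 1.24 without vehicle library 1 (adjusted p = 0.0131). Of 8 osteoclast markers only Acp5 passed the level filter. The list summed to 12 to 20.8 FPKM in vehicle, 13.3 to 20.4 with bleomycin and 16.1 to 28.0 with ST045849. Nearly all of this was Acp5, at 11.9 to 20.7, 12.8 to 19.9 and 15.6 to 27.3 FPKM in the same groups. Each of the other osteoclast markers, among them Calcr, Dcstamp and Ocstamp, stayed at or below 0.32 FPKM in every library. The part of the list in the Ctsk values was not tested.

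Ctss, a cathepsin of antigen-presenting cells (ENSMUSG00000038642.10, chr3:95526786-95556403, plus strand), lies 17423 bases downstream of Ctsk on the same strand. It was listed at 0 in all 3 vehicle libraries, at 0.0208, 0.0205 and 0.0708 FPKM with bleomycin, and at 0, 0.0181 and 0.0578 with ST045849. A count of 0 allows up to 0.0619 to 0.0667 FPKM in the vehicle libraries (3 fragments each, counting error only), and the bleomycin values correspond to about 1 to 3 fragments. No difference was detectable at this depth.

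**Figure D3:**
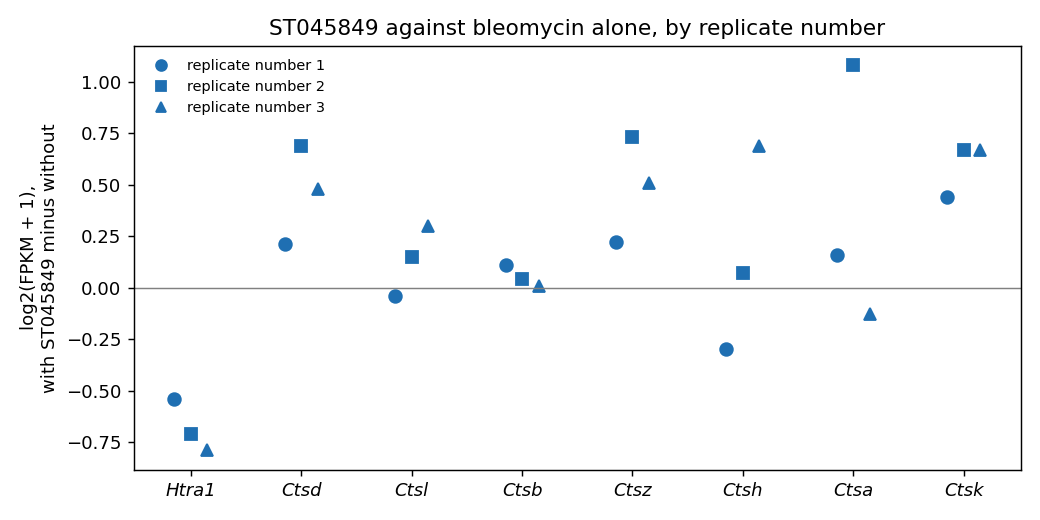
Difference in log2(FPKM + 1) between the ST045849 and the bleomycin library of equal replicate number (vertical axis) for the 8 tested genes (horizontal axis), 1 point for each of 3 numbers. Htra1 is below 0 at all 3 numbers, from -0.54 to -0.79, Ctsb, Ctsd, Ctsk and Ctsz are above 0 at all 3, and Ctsa, Ctsh and Ctsl lie on both sides.

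Genes around these proteases were taken from lists by function. Among 15 other cathepsins 3 passed the level filter. Ctsf, a widely expressed cysteine cathepsin, rose with bleomycin (1.48 ± 0.20, adjusted p = 0.00354), from 18.0 ± 3.01 to 51.7 ± 6.69 FPKM (SD, n = 3), and was at 62.0 ± 8.64 with ST045849 (1.73 ± 0.20 over vehicle, adjusted p = 0.00142). Ctso rose with bleomycin (0.87 ± 0.21, adjusted p = 0.0371), from 1.84 ± 0.0762 to 4.2 ± 0.187 FPKM. The calls of Ctsf held without any 1 library, whereas that of Ctso was lost without any single vehicle or bleomycin library (up to 0.129). Of the 3 other HTRA proteases none was called in any comparison. Htra3, the most abundant of them, differed by 0.40 from vehicle with bleomycin (adjusted p = 0.467) and with both agents (0.284), and by 0.0 between them.

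The list of cathepsin inhibitors was drawn broadly, with cystatins, serpins, A2m and Lxn, and of its 19 genes 10 were tested. With bleomycin 4 rose (Cst3, Serpina3n, A2m and Serpinb9) and none fell, beside 4.88% of all genes called in either direction. With both agents 6 rose and none fell, beside 9.85% of all genes called, and none was called for ST045849 against bleomycin. Whether each of them inhibits the cathepsins followed here was not tested. The median differences of the 10 tested genes over vehicle were 0.71 and 0.93, beside 0.10 and 0.19 for all genes. Cst3, which encodes cystatin C, the main secreted inhibitor of cysteine cathepsins, rose from 388 ± 20.2 to 1022 ± 174 FPKM with bleomycin (1.38 ± 0.25, adjusted p = 0.0114). Leaving out vehicle library 2, vehicle library 3 or bleomycin library 2 ended this call (up to 0.0692). With both agents Cst3 was at 1069.97 ± 249 FPKM (1.44 ± 0.25 over vehicle, adjusted p = 0.00691), which held without any 1 library. Serpina3n, a secreted serpin, rose with bleomycin (1.14 ± 0.26, adjusted p = 0.0345, lost without any single vehicle or bleomycin library, up to 0.144). Serpinb6a, an intracellular serpin, rose with both agents (1.19 ± 0.26, adjusted p = 0.0175, lost without library 2 or 3 of either group, up to 0.0854).

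Genes that mature and sort lysosomal proteases gave fewer calls than the inhibitors. Of all genes, 4.88% were called with bleomycin and 9.85% with both agents. None of the 14 was called with bleomycin, where Lamp1, a lysosomal membrane protein and the most abundant of the list, differed by 0.24 (adjusted p = 0.668). With both agents Gnptg, a subunit of the enzyme that starts the mannose 6-phosphate tag, rose (1.04 ± 0.23, adjusted p = 0.0208, lost without vehicle library 2 or 3 or ST045849 library 2, up to 0.0986). Unkl, on the opposite strand, overlaps 49.5% of Gnptg's exon length, and reads of that overlap cannot be assigned without the strand setting. Of the 8 tested partners of Ctsa and other lysosomal peptidases, 1 rose with bleomycin and 3 with both agents, beside the same shares of all genes. Cpq, a carboxypeptidase, rose in both (0.90 ± 0.20, adjusted p = 0.0286, lost without any single vehicle or bleomycin library, up to 0.135, and 1.20 ± 0.20, adjusted p = 0.00571). Dpp7, a lysosomal dipeptidyl peptidase, rose with both agents (0.86 ± 0.18, adjusted p = 0.0174, lost without vehicle library 2 or 3, up to 0.0875).

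Of the 7 tested genes of the TFEB family and its switches, Mitf rose with bleomycin (0.95 ± 0.23, adjusted p = 0.0445), a call that ended on leaving out any vehicle library, any bleomycin library or the ST045849 library 3 (up to 0.163), and none was called with both agents, where Rragc, the most abundant, differed by 0.51 (adjusted p = 0.117). Rragd and Tfec did not pass the level filter. Rragd stood at 0.11 to 0.169 FPKM in vehicle, 0.66 to 1.15 with bleomycin and 0.793 to 1.14 with ST045849, and Tfec overlapped vehicle near 0. Neither was tested. Of 7 genes of class II antigen presentation, the pathway Ctss serves, 2 were tested and none was called. Among those left out by the level filter, H2-Ab1, Cd74 and H2-Eb1 lay above vehicle in every treated library, at low levels. H2-Ab1 stood at 0.0249 to 0.0818 FPKM in vehicle, 0.534 to 1.03 with bleomycin and 0.747 to 1.36 with ST045849. Ciita and H2-Aa overlapped vehicle. These untested changes have no p-value. H2-DMa, the more abundant, differed from vehicle by -0.15 with bleomycin (adjusted p = 0.822) and by 0.18 with both agents (0.598).

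**Figure D4:**
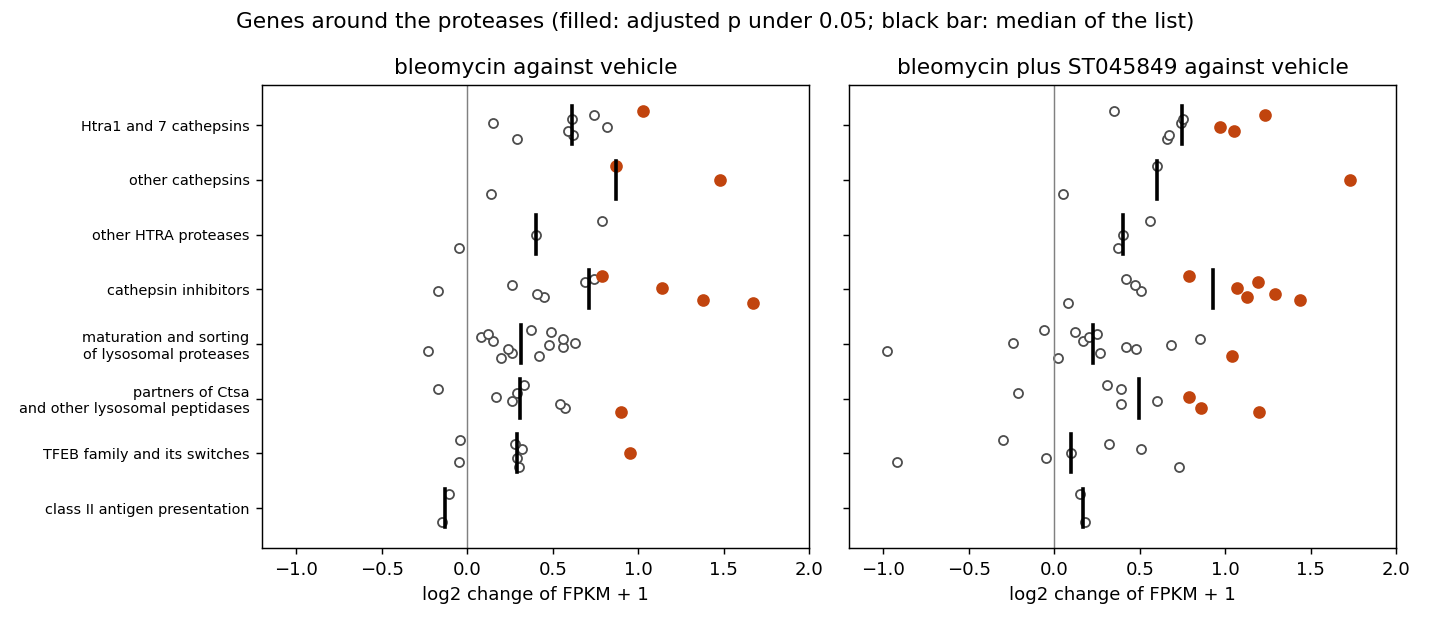
Difference from vehicle in log2(FPKM + 1) (horizontal axis) for the tested genes of 8 lists (vertical axis), with bleomycin on the left and with both agents on the right; filled points have an adjusted p under 0.05 and the black bar is the list's median. Filled points among the 10 tested inhibitors number 4 on the left and 6 on the right, beside 4.88% and 9.85% of all genes called. None of these filled points lies below 0.

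The 17 cartilage matrix proteins known as substrates of HTRA1 or cathepsins moved in both directions. With bleomycin 2 rose and 1 fell, beside 4.88% of all genes called in either direction. Efemp1, a fibulin that HTRA1 cleaves, rose (1.57 ± 0.26, adjusted p = 0.00673), as did the proteoglycan Dcn (1.21 ± 0.31, adjusted p = 0.0489), and Tgfbi, an adhesion protein of the matrix, fell (-1.10 ± 0.26, adjusted p = 0.0365). Efemp1 held without any 1 library, Tgfbi was lost without any single vehicle or bleomycin library (up to 0.158), and Dcn without any of these or ST045849 library 3 (up to 0.186). With both agents 2 rose and 3 fell against vehicle, beside 9.85% of all genes called. Efemp1 (1.55 ± 0.26, adjusted p = 0.00578) and Clu (1.20 ± 0.29, adjusted p = 0.0281) rose. Acan, the large proteoglycan of cartilage (-1.66 ± 0.28, adjusted p = 0.00657), and Matn3 (-1.80 ± 0.33, adjusted p = 0.0097) fell. Leaving out single libraries ended the call of Clu without vehicle library 2 or 3 or ST045849 library 2 (up to 0.119) and that of Matn3 without vehicle library 2 (0.0542). Acan and Matn3 are also in the chondrocyte marker list, whose sum was 13968 to 20713 FPKM with ST045849, overlapping bleomycin (17655 to 25025) and below vehicle (23679 to 33084). Most of that sum was Col2a1, which was not called with both agents (-0.65, adjusted p = 0.212). Of the 9 markers 7 lay lower and 2 higher than vehicle with both agents. Of 6 tested ligands and receptors linked to HTRA1, none was called with bleomycin, where the most abundant, the collagen receptor Ddr2, differed by 0.29 (adjusted p = 0.741). Tgfb1 rose with both agents (0.79 ± 0.20, adjusted p = 0.0349, lost without any single bleomycin library, vehicle library 2 or 3 or ST045849 library 2, up to 0.154).

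For ST045849 against bleomycin none of these genes was called, and the most abundant tested gene of each list differed as follows. The differences were 0.26 for Ctsf (adjusted p = 0.427), 0.05 for Cst3 (0.906), 0.23 for Lamp1 (0.504) and 0.56 for Scpep1, a serine carboxypeptidase like Ctsa (0.204). They were 0.19 for Rragc (0.549), 0.33 for H2-DMa (0.357), -0.27 for Col2a1 (0.612) and -0.74 for Ddr2 (0.213, and 0.0467 without ST045849 library 1).

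Some markers of other cells moved beside the cathepsins. Of the 4 tested macrophage markers 3 rose with bleomycin, beside 4.88% of all genes called. These were led by Lyz2, lysozyme (1.03 ± 0.20, adjusted p = 0.0152), and Cd68, a lysosomal membrane protein (1.38 ± 0.30, adjusted p = 0.029). With both agents 3 rose, beside 9.85% of all genes called, led by the same pair (1.43 ± 0.20, adjusted p = 0.00259, and 1.53 ± 0.30, adjusted p = 0.0133). The remaining tested marker, Laptm5, had the highest mean level of the list and was not called. It lay lower with bleomycin (-0.39, adjusted p = 0.606) and with both agents (-0.72, adjusted p = 0.136). The other markers of the list, among them Ptprc, Adgre1 and Csf1r, did not pass the level filter. The bleomycin calls of Lyz2 and Cd68 each ended on leaving out library 2 or 3 of either group, that of Lyz2 also without bleomycin library 1 (up to 0.0796 and 0.122), and the second call of Cd68 without vehicle library 2 or 3 (up to 0.0724). Fibroblast markers summed to 3546 to 4519 FPKM in vehicle, 5361 to 7578 with bleomycin and 3169 to 6062 with ST045849. Of 8 tested fibroblast markers 2 rose with bleomycin, beside 4.88% of all genes called. These were Dcn and Thy1 (2.00 ± 0.37, adjusted p = 0.0126, up to 0.0649 without vehicle library 2 or 3 or bleomycin library 1). With both agents Thy1 rose by 1.49 ± 0.37 (adjusted p = 0.0311, up to 0.137 without vehicle library 2 or 3 or ST045849 library 2). In the chondrocyte list Prg4, the lubricin of joint surfaces, rose with bleomycin (1.88 ± 0.23, adjusted p = 0.00263) and with both agents (1.64 ± 0.23, adjusted p = 0.00322). The part of other cell types in the members' differences was not tested.

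Scaling ended further calls of these neighbouring genes. Median-of-ratios scaling or quantile normalization, or both, ended those of Ctso, Serpina3n, Cpq, Mitf, Dcn and Cd68 with bleomycin and of Gnptg, Cpq, Dpp7, Clu, Tgfb1 and Thy1 with both agents (adjusted p from 0.051 to 0.129). Ctsf, Cst3, Efemp1, Prg4 and Lyz2 in both comparisons with vehicle, Tgfbi and Thy1 with bleomycin, and Serpinb6a, Acan, Matn3 and Cd68 with both agents kept their calls under both.

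Likeness of pattern was measured as Pearson's r of log2(FPKM + 1) over the 9 libraries, which share the 3 groups, and is a description. Most like Htra1 among 12440 other tested genes were Sync (r = 0.969), Sart3 (0.944) and Plk2 (0.944). The member most like it was Ctsl (r = 0.636, rank 931), and Ctsk stood at r = 0.00715. Most like Ctsk were Ndufs5-ps (r = 0.949), Spaca1 (0.939) and Actr3b (0.936), with Ctsa the closest member (r = 0.669, rank 889). Sync followed the Htra1 levels at a low scale, with 0.606 to 0.760 FPKM in vehicle, 1.18 to 2.02 with bleomycin and 0.912 to 1.04 with ST045849.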

How the data were processed

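Per the labels' protocols, total RNA went into TruSeq Stranded mRNA libraries, 9 in all. Trimmomatic, STAR and the build GRCm38 are named in the submitters' processing notes. The authors deposited FPKM for each gene. Which program, annotation, denominator and strand setting gave the FPKM is not stated in the sources used here. FPKM depends on which fragments enter the library size, so a few very abundant genes can shift all others.

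Symbols came from the deposited row names, and coordinates, exon lengths and overlaps from GENCODE vM21, which held 99.5% of the identifiers (260 were not found). The filter kept genes that reached 1 FPKM in 3 or more libraries. log2(FPKM + 1) of all 9 libraries was fitted with limma 3.58.1 (R 4.3.3, trended prior variance, 6 residual and 4.95 prior degrees of freedom), with Benjamini-Hochberg adjustment over 12441 genes; fold changes on this scale understate those of low genes. The script was tested on simulated data. Depth was read from the steps of low values, of which 21.2 to 23.2% were whole to within 0.02 (4.0% would be by chance), so count tests were not used. Alternatives were 11 planned settings and leaving out each library, and leaving out each replicate number in the paired fit was added after seeing the data. Deviations from the group means correlated at 0.466, 0.481 and 0.5 for equal numbers of bleomycin and ST045849 libraries, and at -0.32 to -0.172 for unequal numbers. Deviations cancel out within a group, so positive values at equal numbers bring negative ones at unequal numbers, which are no further evidence. From the values at equal numbers these libraries were treated as pairs, which the labels do not state. Equal numbers of vehicle and bleomycin gave -0.0711, -0.026 and 0.546, and of vehicle and ST045849 -0.519, -0.279 and 0.424, which is no pairing. Unequal numbers could correlate as strongly: vehicle library 1 with ST045849 library 2 gave 0.568, and vehicle library 2 with ST045849 library 1 gave 0.567. The pairs were chosen from the same values that the paired fit tests, so its calls are not independent of that choice.

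Of each list, up to 2 called genes in each direction by adjusted p are named in each comparison and, where none was called, the gene with the highest mean FPKM, plus the 3 genes most like Htra1 and Ctsk. The members and lists were chosen with earlier results of these data known. Sequences are from RefSeq (GRCm38.p6).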

Additional observations from a re-analysis of the deposited data

How the results depend on the processing

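Of 477 refits of members, 421 kept the direction and the side of the threshold, 27 lost a call, 17 gained one and 12 changed sign. For 973 refits of the other named genes these numbers were 813, 137, 3 and 20. The causes were not tested.

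The count of members called with bleomycin (1) was 0 without the level filter, 3 with quantile normalization, 3 with 2 groups alone, 2 with the length trend removed and 3 with the replicate block and length removal, and 0 to 2 on leaving out single libraries. The count with ST045849 against bleomycin (0) was 2 with the block in 2 groups alone. With both agents (3) it was 1 without the filter, with median-of-ratios scaling and with 2 groups alone, 5 with the length trend removed, 0 with the block in 2 groups alone, with or without length removal, and 1 to 5 on leaving out single libraries. Genes called with bleomycin (607) numbered 284 at a mean of at least 5 FPKM, 1024 with 2 groups alone and 1336 with the block and length removal, and 184 to 829 without single libraries. For ST045849 against bleomycin (0) they numbered 1 without the filter, 2 at a mean of at least 5 FPKM, 2 with quantile normalization, 2 with the length trend removed, 2403 with the block, 115 with the block and length removal, and 0 to 2225 without single libraries. For both agents (1225) they numbered 651, 660 and 621 without the filter, at the higher filter and with 2 groups alone, 199 with the block, 350 with the block and length removal, and 286 to 3060 without single libraries. In bleomycin against vehicle, the block in 2 groups alone ended the call of Htra1 (adjusted p = 0.0577) and made one for Ctsh (0.0489). The block in the fit of all 9 libraries made a call for Ctsl with both agents (0.0458) and changed no other call of a member.

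With quantile normalization the sign changed for Ctsk with bleomycin (-0.03), for Htra1 with both agents (-0.04), and for Ctsa (-0.01), Ctsb (-0.36), Ctsh (-0.16), Ctsl (-0.33), Ctsf (-0.05), Cst3 (-0.21), Lamp1 (-0.26) and Rragc (-0.03) with ST045849 against bleomycin. H2-DMa with both agents was -0.07 with it and -0.04 with median-of-ratios scaling, which also gave -0.04 for Ctsb and -0.04 for Cst3. Removing the length trend, with or without the block, gave -0.38 for Cst3, 0.01 for Htra3 and 0.08 for Col2a1. Ranges that crossed 0 on leaving out single libraries were -0.12 to 0.65 for Ctsk with bleomycin and -0.04 to 0.32 for H2-DMa with both agents. For ST045849 against bleomycin they were -0.02 to 0.11 for Ctsb, -0.01 to 0.25 for Ctsl, -0.12 to 0.22 for Cst3 and -0.13 to 0.19 for Htra3. Ctsh ran from 0.0 to 0.29 on leaving out single libraries. In the paired fit Ctsh was -0.12 without replicate number 3 of both groups and 0.38 without number 1.

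At these depths Ctss cannot be compared between groups, and with 3 libraries a group the intervals of the other members are wide.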
